A study of Mus musculus with 12 samples.

Results

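The genes described here handle lipid in the gut wall: apolipoproteins, fatty-acid and acyl-CoA binding proteins, acyl-CoA synthetases, lipases and phospholipases, enzymes of fatty-acid, triglyceride and phospholipid synthesis, a lipid-droplet coat protein, and lipid transfer and oxysterol-binding proteins. They were picked by gene symbol, from a fixed pattern of family names matched to the names in the files of the 12 h arrays. That choice was made with earlier results of these data known. The pattern found 34 genes with 40 probes among 18116 gene names with 20280 probes. The intestinal fatty-acid binding proteins of the absorptive cell and apolipoprotein B were not among the matched names and were not analysed here. The sample signal of 39 of the 40 probes stood well above background throughout at least 1 time point.

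The RNA came from the full-thickness small intestine of male FVB mice, a wild-type inbred strain, 6 weeks old. Fed mice had chow throughout (0 h), and the other groups had no chow for 12, 24 or 72 h, with water for all of them. Each of the 4 time points had 3 arrays, and each array carried a Cy3-labelled pool of 2 mice, different mice in every pool, beside a Cy5-labelled reference pool of 6 fed mice, with the dyes never swapped. For fed pool 3 the source label of the reference names fewer mice than its labelling protocol, which gives the pool of 6, and it was treated as the common reference. Values are log2 ratios of Cy3 over Cy5 for each pool, and changes are differences between the means of 2 time points on that log2 scale, given ± SE.

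Dietary fat reaches the enterocyte as fatty acids and monoglycerides. Fatty-acid binding proteins carry the acids through the cytosol, acyl-CoA synthetases activate them, acyltransferases such as the Dgat enzymes rebuild triglyceride, and the microsomal transfer protein loads it onto apolipoproteins for export as chylomicrons. Triglyceride that is not exported is held in droplets coated by proteins such as Adfp. Desaturases make mono- and polyunsaturated acids, phospholipases A2 release them from membranes, and oxysterol-binding proteins move sterols and other lipids between membranes.

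The median Cy3 signal was 3.36 to 6.00 times the local background across the 12 arrays, and the median Cy5 signal 1.65 to 2.11 times. The fed and 72 h arrays shared one file format and a range of Cy5 signal, and the 12 h and 24 h arrays shared another. The reference channel itself, which carried the same RNA, differed between time points in 4446 probes at 12 h against fed and in 4128 at 24 h against fed, but in 0 at 72 h against fed (limma, adjusted p, with 2905 probes at 24 h against 12 h and 2794 at 72 h against 24 h). For this reason the changes of the Cy3 and the Cy5 channel are given beside the log ratios that the results turn on. On 12 h pool 1, 5.42% of the spots were marked as outliers, against 0.212% to 1.22% on the other arrays. With 3 pools per time point, the number of arrays limits the precision: the median SE of a change among the lipid probes that were not called was 0.21 to 0.22 on the log2 scale.

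After 12 h without food, stearoyl-CoA desaturase 1 (Scd1) and the oxysterol-binding protein Osbpl5 were higher than in the fed gut, while Osbpl3, Osbpl1a and a probe of the cytosolic phospholipase A2 Pla2g4a were lower, as was Dgat2, for which the fed group had a single usable spot. A change was called at a Benjamini-Hochberg adjusted p under 0.05 over all probes in limma. That gave 2 of 40 probes higher and 4 lower, where 4.87% of all probes were called higher and 5.95% lower. Without 12h pool 1 the count of called lipid probes was 11 in place of 6, and without fed pool 3 it was 2. The calls over all probes moved the same way, from 988 higher and 1207 lower to 2148 and 2450 without 12h pool 1, and to 269 and 345 without fed pool 3. The split by direction changed with the scaling: 2 lipid probes were higher and 8 lower with median centring of each array, 3 and 3 with loess, and 3 and 1 with the ratio of the Feature Extraction software. In both directions together, 15% of the lipid probes and 10.8% of all probes were called, a difference of few probes.

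After 24 h, Scd1 and Osbpl5 were still higher than in the fed gut and a probe of the acyl-CoA synthetase Facl5 was higher too, which made 3 of 40 probes, and none was called lower. In the Cy3 channel alone 4 lipid probes were called higher and 8 lower, and median centring gave 2 higher and 1 lower. Of all probes, 3.75% were called higher and 6.27% lower, so that the share in both directions was 7.5% of the lipid probes and 10% of all. At an unadjusted p under 0.05 the lipid probes numbered 6 of 40, and all probes 5454 of 20280. The count of calls was 1 without fed pool 1, without fed pool 3 or without 24h pool 2. Leaving out an array took the calls over all probes from 761 higher and 1271 lower to between 158 and 448 higher and between 432 and 782 lower.

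After 72 h, hepatic lipase (Lipc) and the fatty-acid desaturase Fads2 were higher, and Dbi, Fabp5, Facl5, Scd2, Pla2g4a and Pla2g7 were lower. These were 2 of 40 probes higher and 6 lower, where 4.76% of all probes were called higher and 5.74% lower. The share in both directions was 20% of the lipid probes against 10.5% of all. Of the 8 probes, 7 passed the threshold at 72 h only among the 3 fasted times, and no lipid probe was called at all 3. The same count was not made over all probes, and a missed call is not an absent change. Across the 3 times, the change against fed ran from -0.64 to -0.36 for Fabp5 and from -0.76 to -0.37 for Pla2g7. The count of lipid probes called at 72 h was 3 without fed pool 1, 2 without fed pool 3 and 2 without 72h pool 1. It was 4 without 72h pool 2 and 3 without 72h pool 3, and without any background correction it was 3. Over all probes, leaving out an array gave 349 to 749 higher and 482 to 992 lower, in place of 964 and 1163.

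Between the fasted time points, Dgat2 and Osbpl3 rose from 12 h to 24 h, which was 2 of 40 probes, and none fell (10 of 40 had an unadjusted p under 0.05, and 4240 of all 20280 probes), where 1.24% of all probes were called higher and 1.7% lower. From 24 h to 72 h Lipc rose and Dbi fell, 1 probe of 40 in each direction, where 5.77% of all probes were called higher and 4.63% lower. The count at 24 h against 12 h was 4 without 12h pool 1 and 1 without 24h pool 2 or without 24h pool 3. The count at 72 h against 24 h was 1 without 24h pool 1 or without 24h pool 2, and 0 without 24h pool 3, without 72h pool 1 or without 72h pool 3. Leaving out an array gave, over all probes, 33 to 824 higher and 136 to 669 lower at 24 h against 12 h, in place of 251 and 344. At 72 h against 24 h it gave 349 to 841 higher and 193 to 535 lower, in place of 1170 and 939. Over the 5 comparisons, 13 of the 34 genes had a called probe and 21 had none. The same count was not made over all genes, so nothing particular to the lipid genes is drawn from it. Those 13 genes carried 21 calls, and in each of the 21 the pools of the 2 time points did not overlap. Selection by p-value largely brings this about, so it adds no support to the calls. For Dgat2 at 12 h against fed, the fed group had 1 pool. Of all 20280 probes, the pools lay apart from fed in 2840 higher and 3422 lower at 12 h. At 24 h these were 4160 and 4024, and at 72 h 4309 and 4165.

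**Figure D1:**
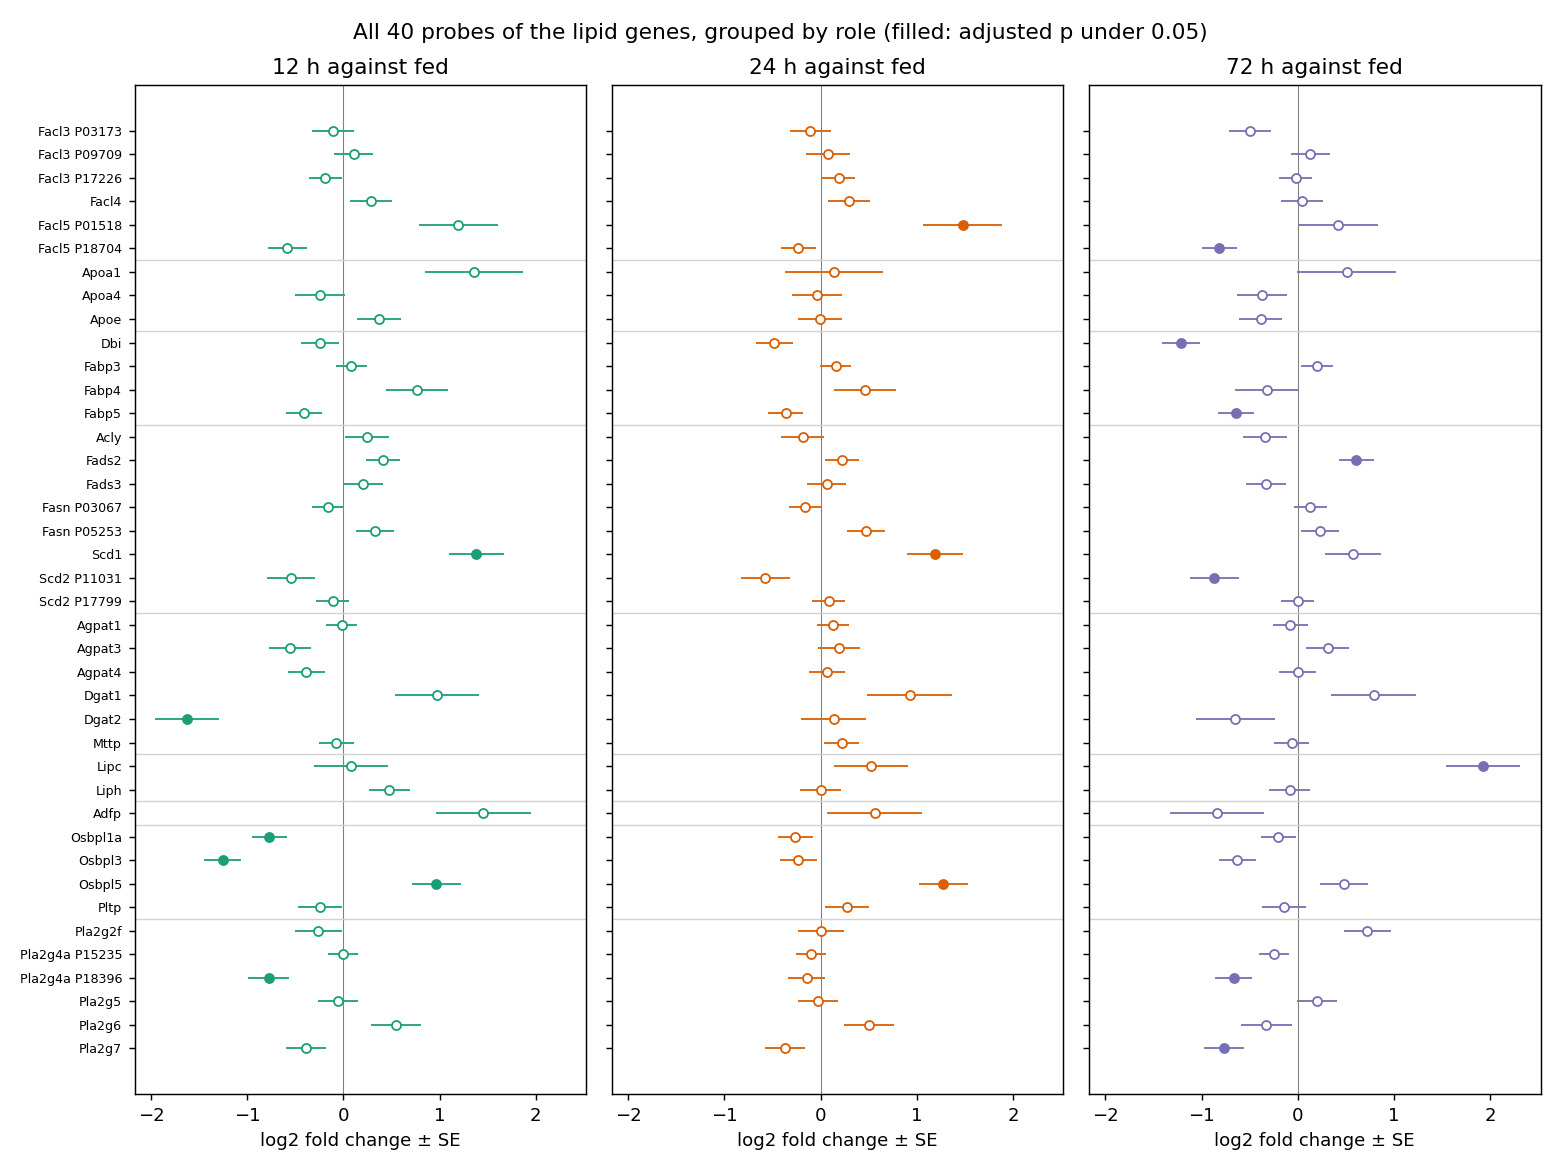
The log2 fold change against the fed pools (x axis, bars are ± SE) of each of the 40 probes (y axis, in blocks by role) at 12 h, 24 h and 72 h, with filled points at an adjusted p under 0.05. Most probes lie close to 0, the filled points at 12 h and 24 h include Scd1 and Osbpl5 to the right, and at 72 h Lipc stands at 1.93 and Dbi at -1.22.

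Dbi and the fatty-acid binding proteins carry activated and free fatty acids inside the cell. Dbi, the acyl-CoA-binding protein, gave log2 ratios of 0.04, -0.10 and 0.48 in the 3 fed pools, 0.06, -0.23 and -0.16 at 12 h, -0.50, -0.40 and -0.12 at 24 h, then -1.16, -0.78 and -1.29 at 72 h. All 72 h pools lay below all other pools. The change at 72 h was -1.22 ± 0.20 against fed, 2.32-fold lower (adjusted p = 0.0017), with -1.12 in Cy3 and 0.10 in Cy5. That call was made under all 19 alternative settings, which are not independent of each other, and the change ranged from -1.80 to -1.04. Against 24 h the fall was -0.74 ± 0.20 (adjusted p = 0.029), a call made under 10 of 19 settings. In whole tissue, fewer cells of a type and less RNA per cell cannot be told apart.

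Fabp5, a fatty-acid binding protein of epithelium and other tissues, had log2 ratios of -0.25, -0.45 and 0.20 in the fed pools and of -0.95, -0.63 and -0.86 at 72 h. The groups were apart, and the change was -0.64 ± 0.19 (adjusted p = 0.039). The sample channel fell by 0.28 (adjusted p = 0.50 in Cy3 alone) and the reference rose by 0.36, so the call was not made from Cy3 alone. Fabp3 and Fabp4 were not called in any comparison. Fabp4, which is abundant in fat cells and macrophages, had the larger changes of the pair, from 0.76 ± 0.32 at 12 h (adjusted p = 0.13) to -0.32 ± 0.32 at 72 h (adjusted p = 0.58). Its Cy3 signal alone was 1.47 higher at 12 h (adjusted p = 0.0027), with the reference 0.70 higher on the same arrays.

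Acyl-CoA synthetases attach coenzyme A to fatty acids, the step before either oxidation or esterification. Facl5 had 2 probes that did not behave alike. Both carry that name in the files, but they are the 2 lipid probes that could not be matched to the annotation by gene number, so their identity rests on the file's name alone. The one with the higher mean intensity gave 0.04, 0.31 and 0.38 in the fed pools, -0.62 and -0.06 in the 12 h pools with a usable spot, 0.00, 0.20 and -0.15 at 24 h, then -0.56, -0.59 and -0.56 at 72 h. The 72 h pools lay below all fed pools, and the change was -0.81 ± 0.18 (adjusted p = 0.012), with -1.03 in Cy3 and -0.22 in Cy5. The other probe gave 0.34, 0.97 and -1.45 in the fed pools and 1.32, 1.63 and 1.35 at 24 h, a change of 1.48 ± 0.41 (adjusted p = 0.037). Its fed pools lay far apart, its Cy3 change of 1.02 was not called alone (adjusted p = 0.16), and the call was made under 7 of 19 settings. At 72 h this probe stood at 0.42 ± 0.41 (adjusted p = 0.58), opposite in sign to the first. Facl3, with 3 probes, and Facl4 were not called, and their changes against fed ran from -0.49 to 0.29.

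Of the enzymes that make and desaturate fatty acids, Scd1 was higher at 12 h and 24 h. It introduces the double bond that turns stearate into oleate. Its log2 ratios were -0.26, -0.20 and -0.22 in the fed pools, 0.61, 0.94 and 1.91 at 12 h, 0.67, 1.53 and 0.67 at 24 h, then 0.27, 0.43 and 0.33 at 72 h. Every fasted pool was above every fed pool. The change was 1.38 ± 0.29 at 12 h (adjusted p = 0.012) and 1.19 ± 0.29 at 24 h (adjusted p = 0.021), 2.61-fold and 2.28-fold higher. At 72 h it was 0.57 ± 0.29 and was not called (adjusted p = 0.23). The reference channel moved by -0.08, 0.10 and 0.06 at the 3 times, while Cy3 alone was 1.30, 1.29 and 0.63 higher. In the 12 h pools log2 Cy3 was 9.05, 9.22 and 9.21 and log2 Cy5 was 8.44, 8.28 and 7.30. The ratio of 1.91 in 12 h pool 3 thus came with a low reference signal. Median centring of each array in place of quantile normalization left 0.90 at 12 h (adjusted p = 0.058). The 24 h call was lost without 24h pool 2 (0.90, adjusted p = 0.083) and without any single fed pool.

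Scd2, another stearoyl-CoA desaturase, was lower at 72 h. Its log2 ratios were -0.35, 0.04 and 0.01 in the fed pools, -0.13, -0.83 and -0.96 at 12 h, -0.73, -0.51 and -0.77 at 24 h, then -1.48, -0.52 and -0.89 at 72 h. The 24 h and 72 h pools lay below the fed pools, and the change at 72 h was -0.87 ± 0.25 (adjusted p = 0.041). Cy3 alone fell by 0.66 (adjusted p = 0.053). The other Scd2 probe, not well above background on any fed array, showed 0.00 ± 0.17 at 72 h.

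Fads2, the delta-6 desaturase of polyunsaturated fatty-acid synthesis, gave -0.17, -0.07 and -0.62 in the fed pools and 0.49, 0.18 and 0.29 at 72 h. The change was 0.61 ± 0.18 (adjusted p = 0.045), with 0.73 in Cy3 and 0.12 in Cy5. Its probe was not well above background on any fed array, so a bound was taken from the means alone. The 72 h mean of Cy3 was 1.33-fold the fed mean. For each fed array, the higher of its lowest measured signal and the probe's own was used. That bound carries no sampling error, and over the 19 settings the change ranged from 0.28 to 0.99. The remaining enzymes of synthesis, fatty-acid synthase (Fasn, 2 probes), ATP-citrate lyase (Acly) and Fads3, were not called at any time, with changes against fed from -0.34 to 0.47. Fads3 was 2.56 higher in Cy3 at 24 h and 2.50 higher in Cy5, and its log ratio changed by 0.06 ± 0.21.

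Dgat2 and Dgat1 catalyse the last step of triglyceride synthesis. The Dgat2 log2 ratios were -1.55, -1.02 and -0.89 at 12 h and 0.24, 0.63 and 0.94 at 24 h, with no overlap. The rise from 12 h to 24 h was 1.76 ± 0.24, which is 3.38-fold (adjusted p = 0.0053), with 1.23 in Cy3 and -0.53 in Cy5. Both time points had the same file format and all 6 spots. Against fed the 12 h change was -1.62 ± 0.33 (adjusted p = 0.017), but only fed pool 3, at 0.47, had a usable spot, which was assumed to vary like the other groups. That call was made under 14 of 18 settings, and was lost with the ratio of the Feature Extraction software, with the deposited table of ratios, with only the 2 time points compared and without moderation. With the outlier spots kept it was -1.30 (adjusted p = 0.0075). At 72 h a single pool remained, at -0.18.

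Dgat1 was not called, with 0.97 ± 0.44 at 12 h (adjusted p = 0.16), 0.93 ± 0.44 at 24 h (adjusted p = 0.19) and 0.79 ± 0.44 at 72 h (adjusted p = 0.29). The acylglycerolphosphate acyltransferases Agpat1, Agpat3 and Agpat4, which act earlier in the same pathway, and the microsomal triglyceride transfer protein Mttp were not called either. Mttp changed by -0.07 ± 0.19, 0.22 ± 0.19 and -0.06 ± 0.19 at the 3 times. Agpat3 was 0.75 ± 0.22 higher at 24 h than at 12 h (adjusted p = 0.082).

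The largest rise of any called lipid probe was that of Lipc, the lipase best known from liver, which hydrolyses triglyceride and phospholipid of lipoproteins. Its log2 ratios were 0.55, 0.81 and -0.65 in the fed pools, -0.52, 0.63 and 0.84 at 12 h, 0.75, 0.57 and 0.96 at 24 h, then 2.57, 1.62 and 2.30 at 72 h. The 72 h pools were above all others, whereas the earlier times overlapped with fed. The change at 72 h was 1.93 ± 0.38 against fed, 3.80-fold (adjusted p = 0.0057), and 1.4 ± 0.38 against 24 h (adjusted p = 0.033). Cy3 alone rose by 1.99 against fed, and Cy5 by 0.06. The call against fed was made under 18 of 19 settings and lost without the moderated variance (adjusted p = 0.055). The call against 24 h was made under 12 of 19 settings, and was lost without moderation, with the replicate block, without any single 24 h pool, without 72h pool 1 and without 72h pool 3. Its probe was well above background on 2 of the 3 fed arrays.

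Because Lipc is a liver gene by background, the liver markers are given beside it. Of the 3 liver marker probes found, albumin (Alb1) was 1.32 ± 0.21 higher at 72 h (adjusted p = 0.0016), while transthyretin (Ttr, 0.24) and fibrinogen alpha (Fga, -0.07) were not called. The summed Cy3 signal of the 3 probes was 411 to 641 in the fed pools, 231 to 632 at 12 h, 606 to 647 at 24 h and 876 to 1322 at 72 h. All 3 were well above background on every 72 h array, and their part in the Lipc result was not tested. Liph, a phosphatidic-acid-selective lipase, was not called, with 0.48 ± 0.21 at 12 h (adjusted p = 0.15).

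The phospholipases A2 split by probe. Pla2g7, the platelet-activating factor acetylhydrolase of plasma, gave -0.24, -0.38 and 0.20 in the fed pools, and -1.01, -0.81 and -0.89 at 72 h. The groups were apart, with a change of -0.76 ± 0.21 (adjusted p = 0.031), of which Cy3 alone gave -0.50 (adjusted p = 0.19) and Cy5 0.26. For Pla2g4a, which releases arachidonate from membranes, the probe with the lower mean intensity changed by -0.78 ± 0.21 at 12 h (adjusted p = 0.037) and by -0.67 ± 0.19 at 72 h (adjusted p = 0.042). Its log2 ratios were -0.08, -0.28 and -0.01 in the fed pools, -0.51 and -1.28 in the 12 h pools with a usable spot, and -0.83, -0.73 and -0.80 at 72 h. The Cy3 changes behind them were -0.12 and -0.55, neither called alone. The other Pla2g4a probe showed 0.00 ± 0.16 at 12 h and -0.25 ± 0.16 at 72 h. The secreted enzymes Pla2g2f and Pla2g5 and the calcium-independent Pla2g6 were not called. Pla2g2f came close at 72 h (0.72 ± 0.24, adjusted p = 0.075).

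The lipid transfer and oxysterol-binding group had 3 of 4 probes called at 12 h, in both directions, the most of any family. Of all probes 10.8% were called, and the Osbpl3 call of this group was not made from Cy3 alone. Osbpl5, which exchanges phospholipid between endoplasmic reticulum and plasma membrane, gave -0.24, -0.40 and -0.47 in the fed pools, 0.29, 0.25 and 1.26 at 12 h, 1.08, 0.49 and 1.15 at 24 h, then 0.13, 0.28 and -0.07 at 72 h. Every fasted pool was above every fed pool. The change was 0.97 ± 0.25 at 12 h (adjusted p = 0.029) and 1.28 ± 0.25 at 24 h (adjusted p = 0.0096), 1.95-fold and 2.42-fold higher. The 24 h call was made under all 19 alternative settings, from 0.75 to 1.75, and Cy3 alone was 1.63 higher there against 0.36 in Cy5. The 12 h call was made under 12 of 19 settings. It was lost without any single fed pool, without 12h pool 3, without background correction, with only the 2 time points compared and without moderation. The probe was well above background on 2 of the 3 fed arrays. In the 12 h pools its log2 Cy3 was 8.07, 7.53 and 7.59 and its log2 Cy5 was 7.78, 7.28 and 6.34. The ratio of 1.26 in 12 h pool 3 thus came with a low reference signal.

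Osbpl3 was lower at 12 h and higher again at 24 h. Its log2 ratios were -0.24, -0.08 and 0.41 in the fed pools, -1.54, -1.04 and -1.10 at 12 h, -0.33, -0.05 and -0.22 at 24 h, then -0.53, -0.67 and -0.60 at 72 h. The 12 h pools were below all others. The change was -1.25 ± 0.20 at 12 h (adjusted p = 0.0034), and 1.02 ± 0.20 from 12 h to 24 h (adjusted p = 0.014). The reference channel moved more than the sample: Cy5 was 0.81 higher at 12 h and 0.82 lower again at 24 h, both called, while Cy3 alone changed by -0.45 (adjusted p = 0.28) and 0.21 (adjusted p = 0.65). From the Cy3 channel alone neither Osbpl3 call was made. At 72 h, within a file format, the change was -0.63 ± 0.20 (adjusted p = 0.054).

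Osbpl1a gave -0.08, 0.11 and 0.30 in the fed pools and -0.55, -0.70 and -0.73 at 12 h. The change was -0.77 ± 0.18 (adjusted p = 0.019), with -0.70 in Cy3 and 0.07 in Cy5, and the later times were not called (-0.26 ± 0.18 at 24 h and -0.20 ± 0.18 at 72 h). The phospholipid transfer protein Pltp, which moves phospholipid between lipoproteins, was not called at any time.

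**Figure D2:**
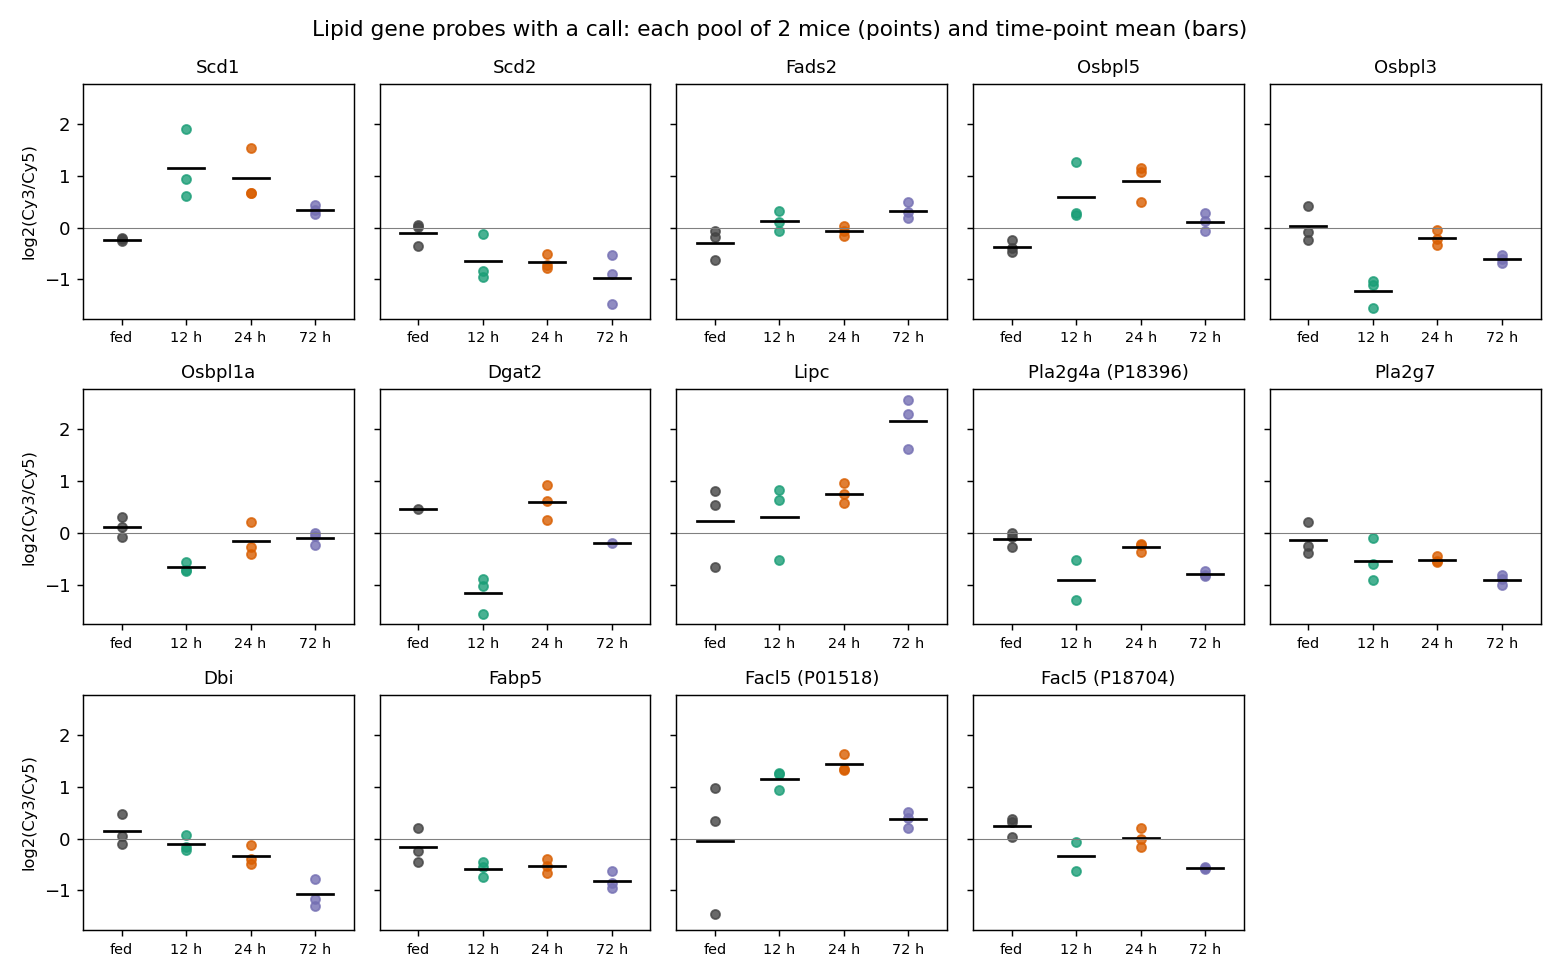
Log2(Cy3/Cy5) of each pool of 2 mice (points) and the mean of each time point (bars) on the y axis, with fed, 12 h, 24 h and 72 h on the x axis, for the 14 probes with a call, on 1 shared scale. The 72 h points of Lipc, between 1.62 and 2.57, and of Dbi, between -1.29 and -0.78, stand apart from all their other points, and Dgat2 has 1 usable fed pool.

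The apolipoproteins and the droplet protein, which carry and store the finished triglyceride, had no call. Apoa4, an apolipoprotein of chylomicrons, changed by -0.24 ± 0.26, -0.04 ± 0.26 and -0.37 ± 0.26 at the 3 times, with its spot saturated in Cy3 on 1 fed array. Apoe changed by 0.37 ± 0.23, 0.00 ± 0.23 and -0.39 ± 0.23. Apoa1, the main protein of high-density lipoprotein, stood 1.36 ± 0.51 higher at 12 h (adjusted p = 0.096). That value rests on 12 h pool 3, whose ratio was 3.28 against 0.41 and 0.61 in the other 12 h pools. The log2 Cy5 signal of that spot was 12.52, and on the other 12 h arrays it was 15.33 and 15.22, while the Cy3 signals were 15.73, 15.83 and 15.79. The Apoa1 spot was saturated in Cy3 on 3 of 3 arrays at 72 h and on 2 of 3 fed arrays, so its change to 72 h was not measured and its difference from fed at 12 h rests on saturated fed spots.

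Adfp, the droplet coat protein now named Plin2, had the largest change that missed the threshold at 12 h, 1.46 ± 0.49 (adjusted p = 0.072). Most of that change was in the reference, with 0.56 in Cy3 and -0.90 in Cy5. The log2 Cy5 signal of 12 h pool 3 was 7.30, against 8.67 and 8.70 on the other 12 h arrays. The Adfp log2 ratios were 0.22 and -1.50 in the fed group, with the spot of fed pool 1 left out as an outlier, and 0.28, 0.22 and 1.95 at 12 h. At 72 h they were -1.38, -1.73 and -1.34, and at 24 h -0.17, -0.10 and 0.04. The 72 h pools were below the 24 h pools, with a change of -1.40 ± 0.44 (adjusted p = 0.057) and -0.95 in Cy3 (adjusted p = 0.037). Against fed the 72 h value was -0.84 ± 0.49 (adjusted p = 0.31), and the 2 usable fed pools lay on either side of 0.

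Of the 21 genes without a call, 14 stayed within 0.5 of 0 on the log2 scale at all 3 times against fed. At 12, 24 and 72 h the median changes of the 40 probes against fed were -0.04, 0.08 and -0.08, where all probes of the array had -0.02, 0.02 and 0.01. With median centring they were -0.19, -0.15 and -0.32, against -0.01, -0.02 and 0.01 for all probes, so that the sign at 24 h turned. The sign at 12 h turned with loess, at 0.04. The median size of the change without its sign was 0.38, 0.21 and 0.36 against 0.28, 0.27 and 0.25.

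Of the 21 calls, 13 were also made in the same direction by the Cy3 channel alone, and Cy5 was called too in 2, both of Osbpl3. The comparison of 72 h with fed and that of 24 h with 12 h lay within a file format and held 10 of the calls. Those of Dbi, Lipc, Facl5 and Fads2 at 72 h and of Dgat2 at 24 h against 12 h were also called in Cy3 alone. Cy3 alone called 5 lipid probes higher and 9 lower at 12 h, but 3 higher and 2 lower at 72 h. Between the fasted times it called 1 higher and 1 lower from 12 h to 24 h, then 4 higher and 6 lower from 24 h to 72 h. Over all probes Cy3 alone called 1281 higher and 1764 lower at 12 h, 2265 higher and 2737 lower at 24 h, then 815 higher and 922 lower at 72 h. From 12 h to 24 h it called 895 of all probes higher and 781 lower, and from 24 h to 72 h 1779 and 1560. Of the calls at 12 h not yet given by setting, Osbpl3 held under 17 of 19, Scd1 under 16, Osbpl1a under 14 and Pla2g4a under 7. At 72 h, Facl5 held under 15, Fads2 under 12, Fabp5, Pla2g7 and Scd2 under 10 each and Pla2g4a under 8.

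**Figure D3:**
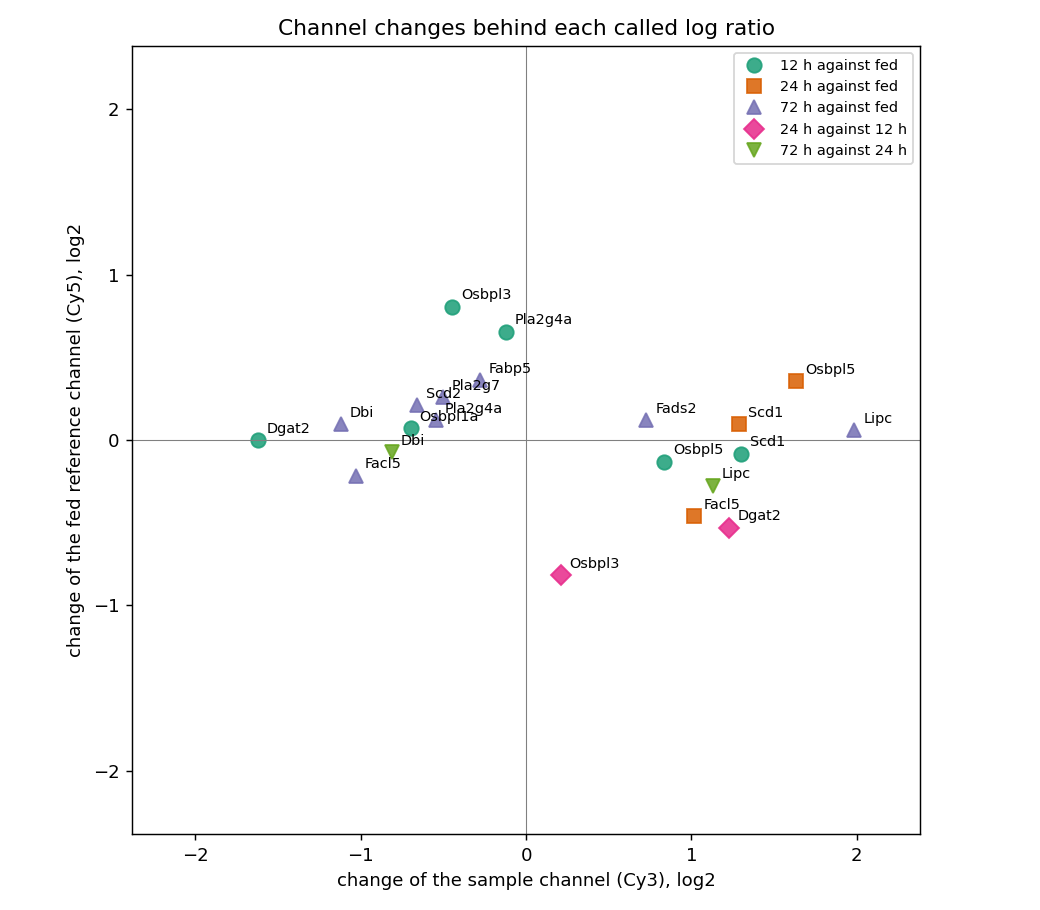
Change of the sample channel (Cy3, x axis) and of the fed reference channel (Cy5, y axis), both in log2 units after quantile normalization, for the 21 called changes, with a symbol for each comparison. Points of Lipc, Dbi and Scd1 lie between -0.28 and 0.10 on the reference axis, and those of Osbpl3 at 0.81 and -0.82.

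No binding or chromatin was measured, and the promoters of Lipc and Osbpl5, which had calls against fed that held under 18 and 19 of 19 settings, are printed for context. RefSeq promoter windows of GRCm38.p6 were found for 26 of the 33 lipid genes with a current symbol, and none was found for Scd1, Scd2 or Dgat2. Each window has 250 bases before and 50 after the outermost start site of the gene. Both lie on the minus strand and are written 5′ to 3′ along it, Lipc at chr9:70952172-70952471 and Osbpl5 at chr7:143756959-143757258. Capitals mark matches, on either strand, to the CCAAT box (CCAAT, read as ATTGG on the reverse strand), to the TATA box (TATAAA), to an E-box (CACGTG), to the half-site of nuclear receptors (AGGTCA) or to a sterol element (TCACNCCAC).
Lipc: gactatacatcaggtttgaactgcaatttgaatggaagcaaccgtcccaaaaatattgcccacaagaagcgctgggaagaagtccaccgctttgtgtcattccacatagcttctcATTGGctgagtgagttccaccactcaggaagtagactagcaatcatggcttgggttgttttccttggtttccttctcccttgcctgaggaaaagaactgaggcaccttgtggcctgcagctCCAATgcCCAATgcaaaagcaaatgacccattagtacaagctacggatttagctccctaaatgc
Osbpl5: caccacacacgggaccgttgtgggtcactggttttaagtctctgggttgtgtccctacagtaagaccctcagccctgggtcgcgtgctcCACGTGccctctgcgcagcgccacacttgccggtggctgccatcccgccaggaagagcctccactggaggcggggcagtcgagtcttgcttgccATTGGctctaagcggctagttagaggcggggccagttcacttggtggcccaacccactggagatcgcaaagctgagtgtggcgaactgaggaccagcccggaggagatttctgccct
The CCAAT box was matched 3 times in the Lipc window and 1 time in that of Osbpl5, which also held 1 E-box. Of 32851 promoter windows of that length, 37.4% held the CCAAT box, 7.15% the E-box, 13.6% the TATA box, 16.3% the half-site and 1.24% the sterol element. The letters of the last 3 were not in these windows.

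Lipid genes outside the name pattern were read from a list of partners: fatty-acid and sterol transporters, lipoprotein receptors, further enzymes, and the transcription factors of lipid metabolism. The array named 18 of them, with 22 probes. At 12 h 1 probe was higher and 3 were lower, at 24 h 3 were higher and 1 lower, and at 72 h 2 were higher and 2 lower. That was 18.2% of the partner probes at each time, against 10.8%, 10% and 10.5% of all probes, a difference of few probes. From 12 h to 24 h none was called, where 2.93% of all probes were, with 8 of 22 at an unadjusted p under 0.05 beside the 4240 of all 20280 probes. From 24 h to 72 h 2 rose and 3 fell, 22.7% of the partner probes against 10.4% of all.

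The transcription factor Nr1h3, the sterol-sensing receptor LXR alpha, was lower at every fasted time, by -0.74 ± 0.17 at 12 h (adjusted p = 0.015), -0.55 ± 0.17 at 24 h (adjusted p = 0.048) and -1.11 ± 0.17 at 72 h (adjusted p = 0.0011), and fell by 0.56 from 24 h to 72 h. Cy3 alone gave -0.41 (adjusted p = 0.12), -0.71 and -1.13 at the 3 times. Its partner receptor Rxra was 2.46 ± 0.51 higher at 72 h (adjusted p = 0.007). Ppara, the receptor that switches on fatty-acid oxidation, was 0.93 ± 0.26 higher at 24 h (adjusted p = 0.037), with 0.88 in Cy3 alone (adjusted p = 0.069). At 12 h it was 1.06 ± 0.26 higher (adjusted p = 0.022), with overlapping pools, and Cy3 alone moved by -0.27 and the reference by -1.33. One of 2 Ppard probes, not well above background on any fed array, was called higher at 24 h (adjusted p = 0.048), and the other was not called.

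Cd36, which takes up long-chain fatty acids, was 1.30 ± 0.21 higher at 72 h than in the fed gut (adjusted p = 0.0022) and 1.19 ± 0.19 higher than at 24 h (adjusted p = 0.0031). Malic enzyme (Mod1), which supplies NADPH to fatty-acid synthesis, was lower at 12 h (-0.79 ± 0.20, adjusted p = 0.027) and at 72 h (-1.004 ± 0.20, adjusted p = 0.006). Its Cy3 signal alone moved by -0.29 at 12 h (adjusted p = 0.42), with the reference 0.50 higher, and by -0.87 at 72 h (adjusted p = 0.027). Gpam, the first acyltransferase of glycerolipid synthesis, was lower at 12 h (-0.81 ± 0.24, adjusted p = 0.046), where Cy3 moved by -0.17 and the reference by 0.64. Monoglyceride lipase (Mgll) was 0.81 ± 0.21 higher at 24 h (adjusted p = 0.031) and fell by 1.09 from 24 h to 72 h (adjusted p = 0.0071). The lipoprotein receptor Lrp1 fell by 0.85 over the same interval (adjusted p = 0.04). Abca1, Scarb1, Slc27a2, Slc27a4, Soat1, Srebf2, Lpin1 and Pparg were among the genes with no call.

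Markers of tissues that could lie in the sample were read in the same way. The enterocyte markers found were Vil, Anpep and Mep1a, all well above background on every array. Their summed Cy3 signal was 9524 to 19109 in the fed pools, 17491 to 23219 at 12 h, 22117 to 25997 at 24 h and 16539 to 19206 at 72 h. Every 24 h pool lay above every fed pool. Mep1a was 0.70 higher at 12 h and 0.87 higher at 72 h, and Anpep 3.43 higher at 12 h with the reference 2.14 lower. Vil changed by -0.02 at 12 h, 0.43 at 24 h (adjusted p = 0.083) and -0.29 at 72 h (adjusted p = 0.26), and was called lower from 24 h to 72 h (-0.72, adjusted p = 0.0096), with -0.36 in Cy3 and 0.36 in Cy5. The 3 adipose markers found were Cidea, Pparg and Fabp4, the last of which is also one of the lipid genes, and none was called. Their summed Cy3 signal was 720 to 1006 in the fed pools, 1826 to 2000 at 12 h, 740 to 1680 at 24 h and 720 to 731 at 72 h. At 12 h, Cy3 alone changed by 1.47 for Fabp4, 0.26 for Cidea and 0.06 for Pparg, so the sum mainly followed Fabp4. On fed pool 3 only 1 of the 3 was well above background. Smooth muscle markers had 4 of 6 probes called higher at 12 h, 2 at 24 h (Des and Smtn) and 2 at 72 h (Des and Myh11), and 1 called lower from 24 h to 72 h (Smtn). The 12 h calls were those of Acta2, Actg2, Smtn and Des, where the reference moved by -1.44, -1.12, -0.92 and -0.48. B and plasma cell markers had 1 of 5 probes called lower at 24 h, 3 at 72 h and 2 from 24 h to 72 h. The macrophage list had 1 of 5 probes higher at 24 h and 1 lower from 24 h to 72 h, and the 3 endothelial probes and the single pancreatic probe, Cpa1, had no call. Of all probes, 4.87%, 3.75% and 4.76% were called higher at 12, 24 and 72 h against fed. The shares called lower were 5.95%, 6.27% and 5.74%, and 4.63% from 24 h to 72 h. The part of these markers in the lipid gene results was not tested.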

How the data were processed

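Each Cy3 pool of 2 mice was hybridized with the Cy5 reference on an Agilent 60-mer array, and the deposited files hold the authors' Feature Extraction 6.1.1 output: median foreground and background intensity per spot and channel, neither corrected nor normalized. The deposited log10 ratios, and the authors' table of the same ratios at the opposite sign, are treated as scores because 391 values had a displaced decimal point; they were repaired and used only as alternatives, 115 of them being left out. The normexp method (offset 50) removed background, and quantile normalization ran over all 24 channels together. Of 21446 spots, 1075 controls and 91 retired spots were left out, as were spots marked as outliers; saturated ones stayed in. Replicate spots were averaged to 1 value per probe. The log2(Cy3/Cy5) values of the 12 arrays entered limma 3.58.1 (R 4.3.3) with a mean per time point, were moderated with eBayes and adjusted by Benjamini-Hochberg over 20280 probes. Limma stood in for the analysis of variance of the methods, whose thresholds (unadjusted p under 0.01, 1.4-fold) were an alternative. Probes dim in a whole group got a bound from Cy3 after loess and Aquantile normalization, open to dye bias.

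Symbols are those of the 12 h files. The fed files gave 5 of the 40 probes another symbol, 38 matched GRCm38.p6 by gene number, and 5 have another current symbol (Facl3 and Facl4 are Acsl3 and Acsl4, Adfp is Plin2). A gene is described by its probe of highest mean intensity, with other probes where they differed in direction or call. Values per pool are given for genes with a called probe, at least for the time points of the call. The genes and lists were chosen with earlier results of these data known. Pools carry numbers 1 to 3 but are of different mice. P-values weigh a change against the spread between pools, as moderated over all probes, and do not cover differences between the file formats. The code was tested on simulated data. Tables and plots used data.table (version 1.17.8), Python 3.11.15, pandas 2.3.3 and matplotlib 3.10.9.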

Additional observations from a re-analysis of the deposited data

Results flagged for a closer look

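Of the lipid probes, 4 log ratios were called different between one fasted time point and the next, which is a test of the difference between the times itself. From 12 h to 24 h, Dgat2 rose by 1.76 and Osbpl3 by 1.02 on the log2 scale. From 24 h to 72 h, Lipc rose by 1.4 and Dbi changed by -0.74. The first pair lies within a file format, the second does not, and the reference channel moved by -0.53, -0.82, -0.28 and -0.07 beside the respective changes. For Osbpl3 the reference movement was itself called, and Cy3 alone changed by 0.21 (limma, adjusted p = 0.65), so no difference in the sample RNA is drawn from it. The calls were lost under 2 of 19 settings for Dgat2, 6 for Osbpl3, 7 for Lipc and 9 for Dbi.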

How the results depend on the processing

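None of the 21 calls of single lipid probes changed sign under any alternative that was run. Under all of them, 2 held (Osbpl5 at 24 h and Dbi at 72 h against fed) and 19 fell short of the threshold at least once, 15 of them without variance moderation, 14 when an array was left out and 8 in the Cy3 channel alone. In the order 12, 24 and 72 h against fed, 24 h against 12 h and 72 h against 24 h, 6, 3, 8, 2 and 2 lipid probes were called. Leaving out 1 array gave 2 to 11, 1 to 3, 2 to 8, 1 to 4 and 0 to 2. Without moderation the counts were 2, 1, 2, 1 and 0, and with only the 2 time points compared 0 at 12 h, 0 at 24 h against 12 h and 10 at 72 h against 24 h. Cy3 alone gave 14, 12, 5 and, at 72 h against 24 h, 10. Loess gave 5 at 24 h and 7 at 72 h against 24 h, median centring 10 at 12 h, no background correction 3 at 72 h, background subtraction 5 at 72 h against 24 h, and the Feature Extraction ratio and the deposited table of ratios each 1 at 24 h against 12 h and 5 at 72 h against 24 h. The thresholds of the methods gave 7 at 72 h against 24 h. The cause of these shifts was not tested. A count of settings is not a count of independent tests, because the settings overlap. The Feature Extraction ratio and the deposited table hold the same ratios at opposite sign, and each lost 7 of the 21 calls. The thresholds of the methods were looser than that of a call and lost 0, so holding under them adds no support.

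Pools of the same number did not deviate together (correlations of -0.28 to 0.13 against -0.28 to 0.31 for pools of different number). With the replicate block, 5, 3, 4, 2 and 0 probes were called. Slide and scan date as a block were not run, because the files used give neither. Signal over background limits the dim probes, 4 of which were not well above background on any fed array.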
